A study of Mus musculus with 12 samples.

Results

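Zbp1 and 6 genes that act with it or beside it in lytic cell death, Ripk1, Ripk3, Mlkl, Gsdmd, Nlrp3 and Pycard, were followed in cultured E0771 cells, a line derived from a spontaneous mammary adenocarcinoma of a C57BL/6 mouse. The genes were chosen by name, and all 7 had 1 row each among the 24197 genes of the authors' table. PolyA-selected RNA was sequenced from 4 groups of 3 samples each, which the study's methods describe as separate cultures. Control cells are listed as untreated and were collected at 72 hours. Cells of the 4HC group were exposed for 4 hours to 4.2 μmol/L 4HC (4-hydroperoxy-cyclophosphamide, an activated form of the alkylating drug cyclophosphamide) and were collected 68 hours after the wash. A further group received 4HC on that schedule together with 10 μg/mL of an antibody that blocks IFNAR1, a subunit of the receptor for type I IFN, and the antibody was kept in the medium until collection. The last group received recombinant IFNβ at 27.8 U/mL for 4 hours and was collected 2 hours after the wash by its sample labels. The study's methods and the authors' name for this group give that time too. Only the protocol text of the labels gives 68 hours. No group received a control antibody or the antibody alone, and all groups share 1 cell line. No untreated cells were collected at the time of the IFNβ cells, which by the study's methods were also seeded more densely. Every difference between IFNβ and control cells therefore also spans a difference in collection time and seeding. The authors deposited 1 mean per gene and group, as FPKM, a level scaled to transcript length and library size, so no spread between samples, SD or test was computed here for any value below. Differences are described by the fold between group means and by the difference of log2(FPKM + 0.1), which understates the fold of weakly expressed genes. A gene is called higher or lower where it differed by more than 2-fold on that scale and reached at least 0.5 FPKM in 1 of the groups compared.

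Necroptosis is a lytic form of cell death in which the kinase RIPK3 phosphorylates the pseudokinase MLKL, which then damages the plasma membrane. RIPK3 is engaged through a short motif, the RHIM, by RIPK1 downstream of death receptors or by ZBP1, an IFN-inducible sensor that binds nucleic acids in the left-handed Z form. Pyroptosis is a second lytic form, in which inflammasome sensors such as NLRP3 recruit the adaptor ASC, encoded by Pycard, to activate inflammatory caspases. These caspases cleave gasdermin D, the product of Gsdmd, whose freed end forms membrane pores. In many tissues these genes are best known from macrophages and other myeloid cells.

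The authors' table placed the genes on mouse build mm9 as follows. Zbp1 was listed at 2 overlapping positions, chr2:173032113-173044423 and chr2:173039236-173044423. Ripk1 lay at chr13:34094742-34127039, Ripk3 at chr14:56403831-56407694 and Mlkl at chr8:113835699-113861803. Gsdmd lay at chr15:75692768-75697834, Nlrp3 at chr11:59356187-59380458 and Pycard at chr7:135134886-135137381. Each position is the span of the whole gene.

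The bases just before the start sites are shown for Mlkl, whose transcript was higher with IFNβ, for Ripk1 and Ripk3, its upstream kinases, and for Ifit3 and Isg15, which are among the 5 genes with the pattern most like that of Zbp1. Promoters came from RefSeq on build GRCm38.p6 and were matched by symbol for 5 of the 7 genes, with Zbp1 and Gsdmd not matched. In each, the 250 bases before the start were searched on both strands for the core of the IFN-stimulated response element, for the GAS element, another sequence of IFN-responsive promoters (TTCNNNGAA), and for a site of NF-kB. Matches to any of them are in capitals, 5′ to 3′ on the strand of the gene.
Mlkl, chr8:111338206-111338455, minus strand: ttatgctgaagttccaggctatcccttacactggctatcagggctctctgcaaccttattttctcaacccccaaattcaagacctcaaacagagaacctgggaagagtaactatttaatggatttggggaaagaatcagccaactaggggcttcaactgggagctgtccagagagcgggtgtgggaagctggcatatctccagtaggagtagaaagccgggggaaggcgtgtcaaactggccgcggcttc
Ripk1, second of 2 listed starts, chr13:34002624-34002873, plus strand: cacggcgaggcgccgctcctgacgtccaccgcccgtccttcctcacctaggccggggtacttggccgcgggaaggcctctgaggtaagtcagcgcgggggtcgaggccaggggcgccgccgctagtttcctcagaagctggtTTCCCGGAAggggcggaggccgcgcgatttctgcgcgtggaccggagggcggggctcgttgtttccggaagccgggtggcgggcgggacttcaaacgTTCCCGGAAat
Ripk3, chr14:55788858-55789107, minus strand: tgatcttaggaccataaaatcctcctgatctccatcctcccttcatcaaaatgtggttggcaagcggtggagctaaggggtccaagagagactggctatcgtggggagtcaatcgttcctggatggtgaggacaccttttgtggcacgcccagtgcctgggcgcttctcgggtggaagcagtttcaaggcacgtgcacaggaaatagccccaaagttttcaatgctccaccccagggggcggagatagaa
Ifit3, chr19:34583279-34583528, plus strand: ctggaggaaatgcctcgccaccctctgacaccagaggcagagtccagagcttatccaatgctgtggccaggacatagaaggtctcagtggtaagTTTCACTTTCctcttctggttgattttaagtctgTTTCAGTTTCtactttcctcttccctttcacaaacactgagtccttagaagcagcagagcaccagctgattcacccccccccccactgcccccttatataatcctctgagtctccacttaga
Isg15, chr4:156200819-156201068, minus strand: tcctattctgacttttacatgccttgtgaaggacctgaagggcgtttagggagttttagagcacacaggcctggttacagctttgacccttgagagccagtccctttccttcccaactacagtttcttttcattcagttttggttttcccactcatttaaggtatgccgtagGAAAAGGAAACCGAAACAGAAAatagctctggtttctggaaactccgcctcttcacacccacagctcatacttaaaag
Of the 7 windows of the 5 matched members, 6 held none of the 3 patterns, and Mlkl was among these. The second start of Ripk1 held the GAS pattern at 2 places, beginning 108 and 11 bases before the start, with the same letters TTCCCGGAA at both. Ifit3 held the IFN-stimulated response element core at 2 places, beginning 156 and 122 bases before its start. Isg15 held 3 matches to it, beginning 78, 72 and 66 bases before the start, each overlapping the next. The windows of Slfn2 and Oasl2, also among the genes most like Zbp1, held no match, and Mx2 was not matched to a promoter. Ifit3 and Isg15, shown here, are thus the 2 of the 4 matched genes that held the core. Of 32851 promoters of this length, 2.98% held the IFN-stimulated response element core, 7.02% the GAS pattern and 0.356% the NF-kB site. A match is only a run of letters in this window and shows no binding.

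Untreated E0771 cells already carried transcripts for the necroptosis kinases and their effector, but hardly any for ZBP1. The authors' control means were 21.1 FPKM for Mlkl, 10.3 FPKM for Ripk3 and 4.41 FPKM for Ripk1. These lay at percentiles 92.6, 84.6 and 72.9 of all 24197 genes in the control group, of which 8327 were listed at 0. Control cells had 0.145 FPKM of Zbp1, still percentile 51.8 on this scale, since the median of all genes was 0.0900 FPKM. Ripk3, the partner of Zbp1, was 71.1 times as high per length of transcript. Gsdmd was listed at 5.10 FPKM (percentile 74.99). The inflammasome pair was near 0 in control cells, with Nlrp3 at 0.00627 FPKM and Pycard at 0.00238 FPKM. Thus 4 of the 7 genes reached 0.5 FPKM without treatment, and 5 of 7 did so in at least 1 group.

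Zbp1 was the gene of the set that differed most between groups. Its group means were 0.145 FPKM without treatment, 10.7 after 4HC, 1.14 after 4HC plus antibody and 8.16 after IFNβ. The 4HC and IFNβ means lay close together and far above control, and the mean with antibody lay between. 4HC cells had 73.9 times the Zbp1 of control cells, a difference of 5.46 on the log2(FPKM + 0.1) scale. Of 11016 genes tested in this comparison, Zbp1 ranked 4 from the highest. With IFNβ the fold over control was 56.4 (difference 5.08 on that scale), and Zbp1 ranked 19 of 10677 genes. The 2 treated means differed from each other by 1.31-fold, and they come from cells collected at different times after the wash.

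Anti-IFNAR1 antibody was accompanied by a Zbp1 mean 9.41 times lower than with 4HC alone, a difference of -3.13 on the log2(FPKM + 0.1) scale. In percent of the 4HC induction, computed as the mean with antibody minus control over the mean with 4HC minus control, 9.40% was left. The median over the 559 genes called higher with 4HC was 73.7% left (interquartile range 26.6% to 99.5%), and over the 174 of them that were also called higher with IFNβ it was 11.96% (5.11% to 31.3%). The mean with antibody was still 7.85 times that of control cells, a difference of 2.34 on the log2(FPKM + 0.1) scale. On the log scale the antibody group thus kept 42.8% of the 4HC difference of Zbp1. With a pseudocount of 1 FPKM this remaining difference was 0.90 and no longer past 2-fold.

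**Figure D1:**
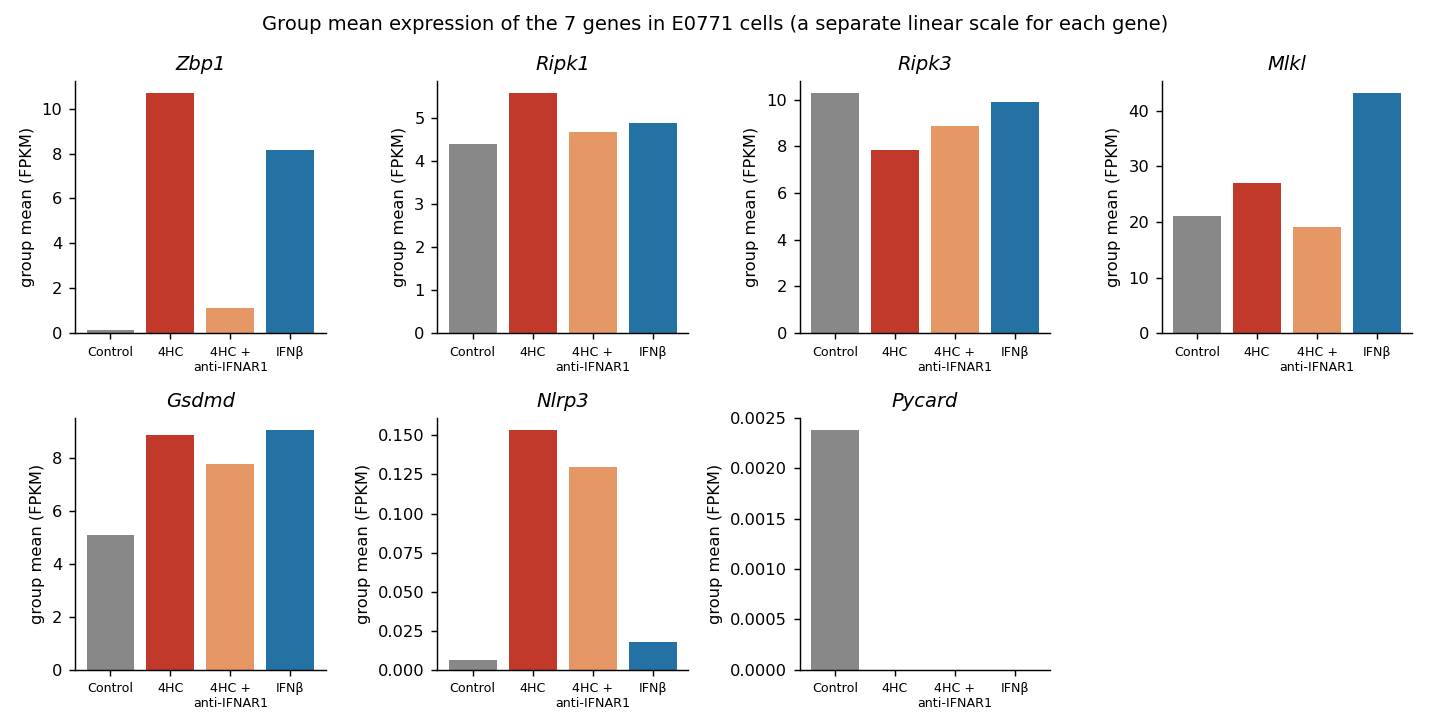
Group mean expression (FPKM, vertical axis, a separate linear scale from 0 for each gene) of the 7 genes by treatment (control, 4HC, 4HC plus antibody, IFNβ); each bar is the authors' mean of a group and carries no error. Zbp1 stands at 10.7 FPKM with 4HC and 8.16 FPKM with IFNβ against 0.145 FPKM in control, Mlkl is highest with IFNβ at 43.2 FPKM, and the Nlrp3 and Pycard scales end below 0.2 FPKM.

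Ripk1, the RHIM kinase of death receptor complexes, stayed within a narrow range. The deposited means were 4.41 FPKM without treatment, 5.58 after 4HC, 4.68 after 4HC plus antibody and 4.89 after IFNβ. The highest group mean was 1.27 times the lowest. Ripk3 was the one expressed member whose mean was below control in every treated group. Its means were 10.3 FPKM without treatment, 7.83 after 4HC, 8.87 after 4HC plus antibody and 9.91 after IFNβ. The lowest, with 4HC, was 1.31 times lower than control, a difference of -0.39 on the log2(FPKM + 0.1) scale. Whether differences of this size exceed the spread between samples cannot be told from group means. Neighbours in the order of these levels differed by 1.04-fold to 1.14-fold.

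Mlkl, the effector of necroptosis, was the most abundant member in every group. Its means were 21.1 FPKM without treatment, 27.1 after 4HC, 19.0 after 4HC plus antibody and 43.2 after IFNβ. IFNβ cells stood apart from the other groups, at 2.05 times control, a difference of 1.03 that lies just past the 2-fold line. The control cells of this comparison were not collected at the IFNβ time. With 4HC the fold was 1.28, and with antibody the mean was 1.11 times lower than control. Thus the antibody group lay below 4HC alone by 1.42-fold, and the order of the 4 means was IFNβ, 4HC, control and 4HC with antibody. The ratio of Mlkl to Ripk3 was 2.05 in control cells, 3.46 with 4HC, 2.15 with antibody and 4.36 with IFNβ, all per length of transcript. The ratio of Zbp1 to Ripk3 was 0.0141 in control cells, 1.37 with 4HC, 0.128 with antibody and 0.824 with IFNβ, so the Zbp1 mean passed that of its partner kinase in the 4HC group alone.

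Gsdmd, the pore-forming gasdermin of pyroptosis, was above control in every treated group. Its means were 5.10 FPKM without treatment, 8.91 after 4HC, 7.79 after 4HC plus antibody and 9.09 after IFNβ. These are folds of 1.75, 1.53 and 1.78 over control, none past 2-fold. The 4HC and IFNβ means differed by 1.02-fold, and adding antibody to 4HC went with a mean 1.14 times lower.

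Nlrp3, the inflammasome sensor, remained far below the minimum of 0.5 FPKM in every group. It was listed at 0.00627 FPKM without treatment, 0.154 after 4HC, 0.130 after 4HC plus antibody and 0.0177 after IFNβ. The 4HC groups, with and without antibody, lay together above control and IFNβ. So did the median of all genes, at 0.0900 FPKM in control, 0.176 in both 4HC groups and 0.0908 with IFNβ. Nlrp3 was therefore not counted among the genes tested, and no fold is read from these levels. Pycard, the adaptor ASC, had 0.00238 FPKM in control cells and was at 0 in the other groups. Values at 0 were not common among genes that every cell uses. Of 77 ribosomal protein genes, 4 stayed under 0.5 FPKM in all groups, and these were the tissue-restricted or like-named copies Rpl10l, Rpl39l, Rpl3l and Rps4l, named after their values were seen. All 10 housekeeping genes checked reached 0.5 FPKM.

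Set against all genes, Zbp1 was called in every comparison and Mlkl in 1. The members were chosen with earlier results of these data known, so their counts beside the shares of all genes are no test. Zbp1, under 0.5 FPKM in control cells, was tested against control only through its higher treated means, and could not be called lower there. For 4HC against control, 1 of the 5 members tested was called higher and 0 lower, where 5.07% of all genes tested were called higher and 0.445% lower. For 4HC with antibody against control, 1 of 5 was called higher and 0 lower, against backgrounds of 4.46% and 0.446%. For IFNβ against control, 2 of 5, Zbp1 and Mlkl, were called higher and 0 lower, against 2.19% and 0.318%. For 4HC with antibody against 4HC, 0 of 5 were called higher and 1 lower, against 0.46% and 1.52%. The median log2 differences of the 5 tested members were 0.36, 0.08, 0.82 and -0.25 in this order of comparisons, and those of all genes tested were -0.01, 0.02, -0.03 and -0.01. The first 3 comparisons share the control samples, and the first and the last share the 4HC samples.

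**Figure D2:**
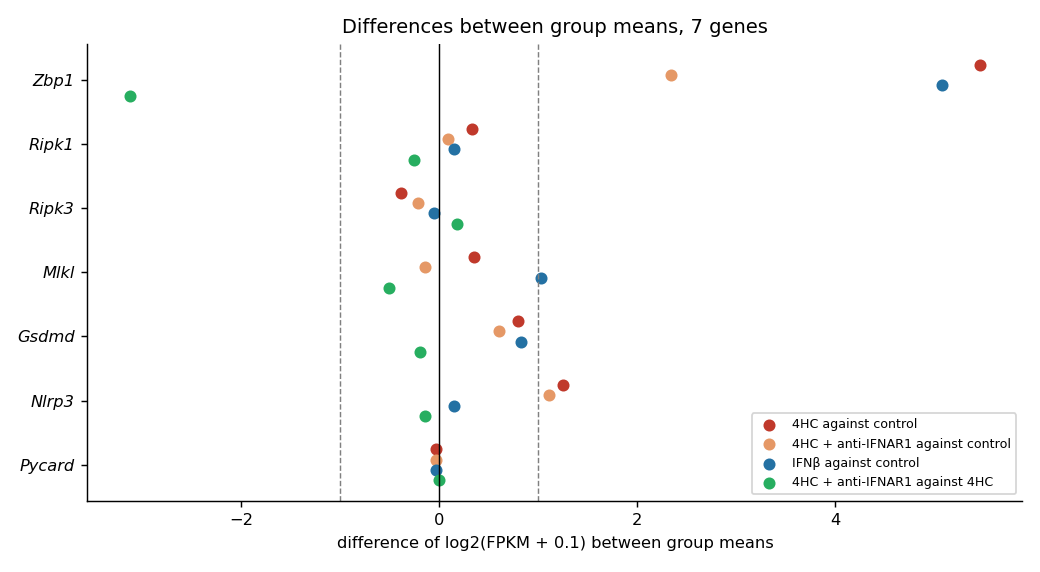
Difference between group means for the 7 genes (horizontal axis, log2 of FPKM + 0.1), 1 point for each of the 4 comparisons, with dashed lines at 2-fold. Zbp1 lies at 5.46 with 4HC, 5.08 with IFNβ and -3.13 for antibody against no antibody, while Ripk1, Ripk3 and Gsdmd stay inside the lines; Nlrp3 lies past the line although all of its means are under 0.5 FPKM.

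The 5 genes whose pattern was most like that of Zbp1 are all known IFN-stimulated genes. Likeness was the Euclidean distance over the log2(FPKM + 0.1) differences of the 3 treated groups from control, among 9551 other genes of at least 1 FPKM in a group. In order they were Slfn2 (distance 0.54), Ifit3 (0.56), Mx2 (0.59), Oasl2 (1.04) and Isg15 (1.06). Slfn2, a Schlafen family member, was listed at 0.147 FPKM without treatment, 11.7 after 4HC, 1.38 after 4HC plus antibody and 5.93 after IFNβ. Ifit3, an antiviral protein that binds other IFIT proteins, was listed at 0.176, 10.3, 1.46 and 12.9 FPKM in the same order. Slfn2, like Zbp1, was thus higher with 4HC than with IFNβ, whereas Ifit3 was higher with IFNβ. The percent of 4HC induction left with antibody was 10.6% for Slfn2, 12.7% for Ifit3, 10.7% for Mx2, 5.51% for Oasl2 and 12.7% for Isg15. The distance rests on 3 values from 4 group means and has no error. The same means give the percent left and the IFNβ fold. A similar percent left and a high level with IFNβ were therefore set by the choice of these genes, and add no support.

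**Figure D3:**
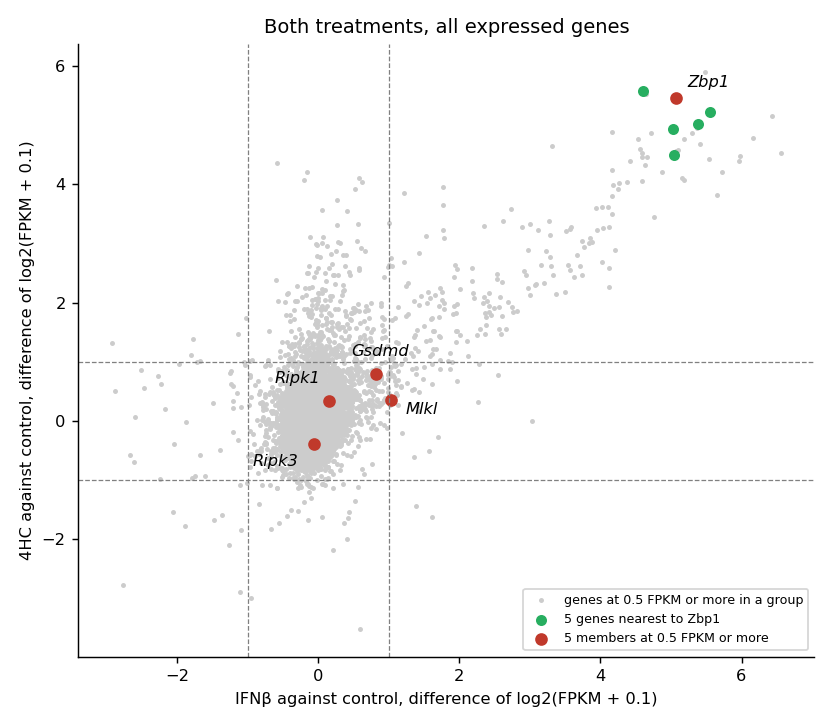
Differences from control with IFNβ (horizontal) and with 4HC (vertical), in log2 of FPKM + 0.1, for all genes of at least 0.5 FPKM in a group (grey), the 5 expressed members (red, named) and the 5 genes nearest to Zbp1 (green), with dashed lines at 2-fold. Zbp1 lies at 5.08 and 5.46, near the top right end, and Mlkl lies just past the line for IFNβ alone; both axes share the control samples.

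Partner genes of both pathways were read from 4 lists of 63 genes in all, 46 of which reached 0.5 FPKM in a group. The lists were chosen with earlier results of these data known and include genes high with IFNβ, such as Gbp2 and Gbp5. Shares above those of all genes, here and in each list below, are therefore no test of the pathways. Genes under 0.5 FPKM in control, such as Tnf and Gbp2, were tested against control only where a treated group was higher. Such genes could not be called lower than control. With 4HC, 16 of 46 tested partner genes were called higher and 0 lower, a share of 34.8% beside 5.07% of all genes. With IFNβ, 9 of 45 were called higher and 0 lower, a share of 20% beside 2.19%. With 4HC and antibody, 11 of 43 were called higher than control and 0 lower, a share of 25.6% beside 4.46%. Against 4HC alone, 8 of 46 were called lower with antibody, a share of 17.4% beside 1.52%. Their median log2 differences from control were 0.43 with 4HC, 0.25 when antibody was added and 0.11 with IFNβ.

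Among death receptors, ligands and adaptors upstream of RIPK1, 4 of 11 were called higher after 4HC (5.07% of all genes), 2 of 10 after 4HC plus antibody (4.46%) and 3 of 10 after IFNβ (2.19%). Fas, a death receptor, was listed at 0.549 FPKM without treatment, 4.57 after 4HC, 4.05 after 4HC plus antibody and 1.64 after IFNβ. Tnf, the ligand of the TNF receptor that nucleates RIPK1 complexes, was listed at 0.134, 1.503, 1.26 and 0.138 FPKM. Fas and Tnf were therefore high in both 4HC groups, and 87.1% and 82.4% of their induction was left with antibody. Tnfsf10, which encodes TRAIL, was highest with IFNβ, at 0.0910, 0.813, 0.275 and 3.22 FPKM in the same order of groups. Tlr3, an endosomal receptor of double-stranded RNA that signals through the RHIM adaptor TRIF, was listed at 0.256, 1.34, 0.551 and 2.21 FPKM. Tlr3 was picked out once its values were known. The most abundant genes of this list, Tnfrsf1a and Traf2, had 28.9 and 11.3 FPKM with 4HC against 33.1 and 7.36 FPKM in control cells.

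Genes that restrain necroptosis or set the fate of RIPK1 were called higher in 5 of 18 cases after 4HC (5.07% of all genes), 4 of 18 after 4HC plus antibody (4.46%) and 1 of 18, a single gene, after IFNβ (2.19%). Tnfaip3, which encodes the ubiquitin-editing enzyme A20, was listed at 0.501 FPKM without treatment, 2.59 after 4HC, 1.76 after 4HC plus antibody and 0.498 after IFNβ. Birc3, a ubiquitin ligase of RIPK1, was listed at 0.412, 1.65, 1.29 and 0.576 FPKM in the same order. Ikbke, a kinase of RIPK1 and of IRF3, was listed at 1.24, 3.57, 2.71 and 1.20 FPKM. All of these were high in both 4HC groups and near control with IFNβ. Adar, the RNA editor that limits the Z-form RNA available to ZBP1, followed another order, at 5.99 FPKM without treatment, 14.1 after 4HC, 3.91 after 4HC plus antibody and 18.8 after IFNβ. It was the 1 gene of the list called higher with IFNβ, its mean with antibody lay below control, and it was named after its values were seen. Rbck1 and Otulin, which help to make and remove linear ubiquitin chains, were the most abundant of the list, with 15.9 and 14.4 FPKM in control cells and 14.1 and 13.4 FPKM after 4HC. Casp8, the protease that cleaves RIPK1 and RIPK3, was listed at 6.89, 8.57, 8.19 and 7.23 FPKM, and was also named afterwards.

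Among inflammasome sensors, caspases and their helpers, 11 of 18 reached 0.5 FPKM in a group. Of these, 6 of 11 were called higher after 4HC (5.07% of all genes), 5 of 10 after 4HC plus antibody (4.46%) and 4 of 11 after IFNβ (2.19%). Gbp2 and Gbp5, guanylate-binding proteins that act upstream of inflammasomes, had 0.276 and 0.0908 FPKM without treatment and 8.02 and 3.72 FPKM after 4HC. With antibody they were at 2.44 and 1.20 FPKM, and with IFNβ at 17.3 and 4.62 FPKM. Gm12250, known as Irgb10, a GTPase that acts with them, was listed at 0.0266, 1.68, 0.173 and 6.29 FPKM. Casp4, the mouse caspase that cleaves gasdermin D in response to lipopolysaccharide, was listed at 0.566 FPKM without treatment, 5.54 after 4HC, 3.84 after 4HC plus antibody and 2.19 after IFNβ. Casp1, the caspase of NLRP3 inflammasomes, was listed at 0.484, 1.39, 1.32 and 0.879 FPKM. Casp4 and Casp1 were picked out once their values were known. Their induction with 4HC left with antibody was 65.7% and 92.0%, against 9.40% for Zbp1. Nek7 and Aim2, the most abundant genes of the list, had 13.3 and 9.003 FPKM in control cells and 12.7 and 11.4 FPKM with 4HC.

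Of the gasdermins and products of pyroptosis, 6 of 16 reached 0.5 FPKM in a group, and 1 of 6, Il18, was called higher with 4HC (5.07% of all genes). Il18, a cytokine matured by caspase-1, was listed at 0.193 FPKM without treatment, 0.891 after 4HC, 0.333 after 4HC plus antibody and 0.863 after IFNβ. It was also the 1 gene of the list called higher with IFNβ (2.19% of all genes). Il1b, the other cytokine matured by that caspase, was listed at 0 in control, 4HC and antibody cells and at 0.00588 FPKM with IFNβ, and was named after its values were seen. Dfna5, the gene of gasdermin E, was listed at 1.06, 0.866, 1.11 and 0.915 FPKM. Hmgb1, a nuclear protein released on lysis, was listed at 117.5 FPKM without treatment, 83.4 after 4HC, 105.2 after 4HC plus antibody and 127.1 after IFNβ. No other gasdermin besides Gsdmd and Dfna5 reached 0.5 FPKM in any group.

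**Figure D4:**
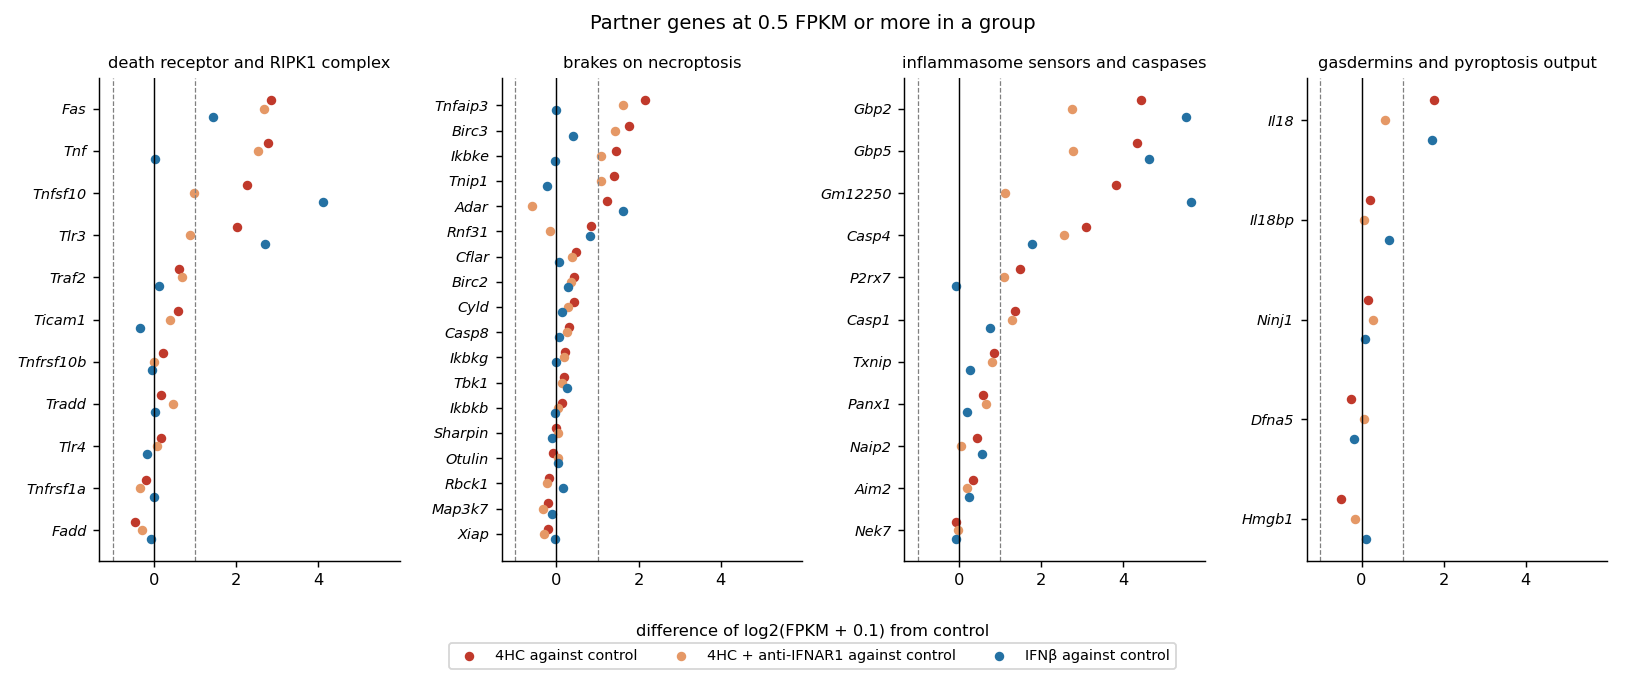
Differences from control (horizontal axes, log2 of FPKM + 0.1) for 45 of the 46 partner genes of at least 0.5 FPKM in a group, in 4 lists, with 1 point each for 4HC, 4HC with antibody and IFNβ and dashed lines at 2-fold. Fas, Tnf, Tnfaip3, Birc3 and Ikbke lie past the line in both 4HC groups, as do Gbp2, Gbp5 and Gm12250 (Gm12250 under 0.5 FPKM with antibody). Gbp2, Gbp5 and Gm12250 lie farther right with IFNβ than in the antibody group, and Fas is also past the line with IFNβ.

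The IFN pathway itself set the frame for these values. Ifnb1, the gene of IFNβ, was listed at 0.0066 FPKM without treatment, 0.820 after 4HC, 0.701 after 4HC plus antibody and 0.0120 after IFNβ. Cxcl10 had 1.04, 28.6, 18.5 and 11.2 FPKM in the same order, Irf7 had 1.21, 30.9, 1.48 and 43.8 FPKM, and Igtp had 0.558, 14.5, 1.45 and 41.5 FPKM. The percent of 4HC induction left was 63.2% for Cxcl10, 0.912% for Irf7 and 6.38% for Igtp, and Zbp1, at 9.40%, stood nearer to Igtp.

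Markers of the cell line and of leukocytes were read from the same means, since several of these genes are typical of myeloid cells. Of 10 leukocyte markers, Cd68 and Lyz2 reached 0.5 FPKM, in every group, while Ptprc, the gene of CD45, was at 0.0114 FPKM or less and Cd3e and Ncr1 were at 0 in every group. The myeloid markers under that level were nonetheless above control in both 4HC groups. Csf1r, a growth factor receptor of macrophages, was at 0.00435, 0.145, 0.201 and 0.0127 FPKM in the order control, 4HC, 4HC plus antibody and IFNβ. Itgam was at 0.00322, 0.0199, 0.0202 and 0.00333 FPKM, and Emr1, the gene of F4/80, was at 0, 0.0155, 0.00864 and 0.00240 FPKM. Cd14 was at 0.248, 0.338, 0.464 and 0.317 FPKM. As for Nlrp3, Csf1r and Itgam were higher in both 4HC groups than in control and IFNβ cells. Low levels of all genes shifted in the same way. Genes listed at 0 numbered 8327 in control, 6339 with 4HC, 6408 with antibody and 8516 with IFNβ. The median of all genes was 0.0900, 0.176, 0.176 and 0.0908 FPKM in that order. A rise near 0 in both 4HC groups is therefore not particular to myeloid genes, and its source was not tested. The summed level of the 10 markers was 2.35 FPKM without treatment, 6.11 after 4HC, 6.84 after 4HC plus antibody and 2.82 after IFNβ. Cd68 accounted for most of this difference, at 0.795, 3.80, 3.63 and 1.03 FPKM, and the part of these markers in the results was not tested. Of 10 genes of epithelial and mesenchymal identity, Vim (785.4 FPKM), Krt8 (70.2 FPKM) and Erbb2 (4.71 FPKM) reached 0.5 FPKM in control cells, while Epcam and Cdh1, which define epithelial cells, were at 0.0357 and 0.0463 FPKM. Krt14 was at 0.0957 FPKM without treatment and 0.509 after 4HC. In bulk RNA, fewer cells with a transcript and less transcript per cell cannot be told apart.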

How the data were processed

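PolyA-selected, stranded libraries were prepared from 3 cultures in each of 4 groups of E0771 cells (12 samples). According to the submitters' processing notes, TopHat2, featureCounts and edgeR were used with mouse build mm9, and versions are not given in the sources used here. The deposited table gives, per gene, the authors' mean FPKM of each group, with the libraries of each group named in its header. It also holds the authors' ratios, fold changes and p-values for 4 comparisons, which were not used. No counts and no values per sample were analysed here, so the depth behind each mean is unknown, and no test, SD or interval was computed. The edgeR test of the methods was therefore not run.

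Log2 differences used a pseudocount of 0.1 FPKM. A gene was tested where it had at least 0.5 FPKM in 1 of the 2 groups, and called past 2-fold. The pseudocount, the minimum, the fold and median centring were varied. Calls, percent of induction left and the motif search were checked on simulated data. The 7 genes and the gene lists were chosen with earlier results of these data known. Of 101 list genes, all 101 matched the table by a current or older symbol. Named genes were all 7 members, the IFN reference genes, the 3 of largest change with 4HC and the 2 of highest mean in each list, among genes of at least 0.5 FPKM in a group, and, among genes of at least 1 FPKM, the 5 nearest to Zbp1. Any further gene is marked as picked out once its values were known, apart from markers under 0.5 FPKM, which are outside the rule and were also picked out then. The nearest genes leave out 27 rows whose symbols a spreadsheet had made into dates, as well as predicted genes and small RNAs. Promoters were RefSeq entries on GRCm38.p6, without the 50 bases after the start. Coordinates of genes are those of the authors on mm9, and no coordinate was converted. Work was done in Python 3.11.15 with matplotlib 3.10.9, numpy 2.4.6 and pandas 2.3.3. Some list genes are counted but not reported here by name.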

Additional observations from a re-analysis of the deposited data

How the results depend on the processing

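The value of 1 member called higher with 4HC became 2 without a minimum of FPKM, where Nlrp3 entered, and 2 at 1.5-fold, where Gsdmd entered. For 4HC with antibody against control, the same changes gave 2 and 2 members instead of 1, and a pseudocount of 1 FPKM gave 0, since Zbp1 then differed by 0.90. For IFNβ, a pseudocount of 1 FPKM or a 4-fold threshold left 1 member instead of 2, because Mlkl dropped out, and 1.5-fold gave 3, with Gsdmd added. Every other alternative left the counts of members as they were. None turned the direction of a member of at least 0.5 FPKM in a group. Pycard, under that minimum, went from -0.034 to 0.0071 for 4HC against control on median centring. The percent of Zbp1 induction left was 8.44% after scaling each group to the same sum and 42.8% as a ratio of log2 differences, against 9.40%. Median centring shifted differences by -0.04, -0.02, -0.03 and -0.0028 on the log2 scale in the 4 comparisons and changed no call. Leaving out replicates could not be done. No paired analysis was possible because the values used are group means, with no value for each replicate.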
